A study of Homo sapiens with 8 samples.

Results

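Heme breakdown and iron handling were followed through 10 genes of the 28265 in the count tables, selected by symbol. They comprise both heme oxygenases (HMOX1, HMOX2), both biliverdin reductases (BLVRA, BLVRB), the ferritin chains (FTL, FTH1), the iron exporter ferroportin (SLC40A1), the transferrin receptor (TFRC), ferrochelatase (FECH) and the heme transporter HRG1 (SLC48A1). Factory RNA-Seq, an approach that sequences RNA associated with transcription sites in the nucleus, had been applied to IMR90, a line of human fetal lung fibroblasts. Control cells were of low passage and are labelled young, with no treatment given in their labels. Other cells, also of low passage, received ICM (inflachromene, a binder of the chromatin proteins HMGB1 and HMGB2) for 3 or 6 days. Cells of the last condition, also of low passage, carry the label MetaICM, for which neither identity, dose nor time is given in the sources used here. Each of the 4 conditions has 2 libraries. The study's methods speak of single IMR90 isolates and its results of different isolates, and the isolate of each library here is not given. No label states that cultures were separate, so p-values measure the spread between these libraries, which may be technical. The fits also share spread over all genes tested, so an interval can be too narrow for a gene whose replicates differ widely. All groups share the IMR90 background, and the labels describe poly(A) selection of total RNA for every library, whereas the study's methods describe nascent RNA.

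Heme is an iron-containing ring that is toxic when free. Heme oxygenases open it and release iron, carbon monoxide and biliverdin, which biliverdin reductases convert to bilirubin. Released iron is stored inside shells of ferritin or leaves the cell through ferroportin, the only known exporter of iron in mammals, while the transferrin receptor brings iron in and ferrochelatase inserts it in the last step of heme synthesis. The genes for HMOX1, ferritin and ferroportin are known targets of NRF2 (encoded by NFE2L2), a stress-activated factor held back by KEAP1, and are repressed by BACH1, which heme inactivates. Iron acts a second way, through iron regulatory proteins that bind a hairpin in the RNA, the iron-responsive element (IRE), and so control ferritin and ferroportin translation and transferrin receptor RNA stability.

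The RNA and DNA letters through which these known controls act are shown first, since they differ between the members. The IRE letters were searched as a C, a stem of 5 bases, the loop CAGTGN with a last base other than G, and 5 bases that pair with the stem, G-T pairs allowed. In GENCODE release 44 on GRCh37 (hg19), 4 members hold them in an untranslated region (UTR), against 141 of 19807 genes with a protein-coding transcript (0.712%). FTL, FTH1 and SLC40A1 each hold 1 in the 5′ UTR, where 28 genes (0.141%) have any, and TFRC holds 4 in the 3′ UTR. An IRE that departs from these letters would be missed, so these are numbers of matches and may not be complete. The sites are printed 5′ to 3′ on the strand of the gene, with the loop in capitals; that of FTL lies at chr19:49468592-49468620 (plus strand), that of SLC40A1 at chr2:190445387-190445415 (minus strand) and those of TFRC at chr3:195777850-195777878, chr3:195777446-195777474, chr3:195777381-195777409 and chr3:195777334-195777362 (minus strand, in that order along the RNA).
FTL IRE: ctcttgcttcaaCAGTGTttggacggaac
SLC40A1 IRE: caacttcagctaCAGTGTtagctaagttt
TFRC IRE a: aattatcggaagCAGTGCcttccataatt
TFRC IRE b: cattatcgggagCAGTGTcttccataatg
TFRC IRE c: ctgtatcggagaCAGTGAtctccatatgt
TFRC IRE d: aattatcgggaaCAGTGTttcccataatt

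The loops of FTL, SLC40A1 and TFRC sites b and d have the same 6 letters, while those of TFRC sites a and c differ in the last base.

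The second search was for TGACTCAGC, or GCTGAGTCA on the other strand, letters of the antioxidant response element through which NRF2, BACH1 and small MAF proteins bind. Within 10 kb upstream of the annotated start, 5 members hold at least 1 match, where 3457 of 27479 genes (12.6%) do. HMOX1 has 4, a number reached or passed by 2 genes of all those scanned (0.00728%); they lie 9069, 9011, 8982 and 3932 bases upstream of its start. FTH1 has 1 match 4409 bases upstream. FTL has 1 at chr19:49467199-49467207, 1359 bases upstream, BLVRA 1 at chr7:43796384-43796392, 1880 bases upstream, and FECH 1 at chr18:55254213-55254221, 279 bases upstream. The 29 bases around each of these 3 are printed in the direction of the gene, with the match in capitals, to show that they differ outside it.
FTL upstream: gagctcagcaTGACTCAGCagtcgctgcc
BLVRA upstream: tgtactggtcTGACTCAGCaagtgaacat
FECH upstream: aaagttatttGCTGAGTCAtggctgagga

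The other 5 members (HMOX2, BLVRB, SLC40A1, TFRC, SLC48A1) have no match in these windows. In RefSeq promoters of GRCh38.p14, from 250 bases before to 50 after the start, 8 members were matched. The looser letters TGACNNNGC, searched on both strands and holding every TGACTCAGC match, occur in FECH among them, against 13.3% of 35116 promoters. HMOX1 and FTH1 had no promoter entry, so their promoters were not searched for these letters. A match is a run of letters, and no binding was measured.

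The 8 libraries held between 12095123 and 23166405 counted read pairs, and replicates correlated with a Pearson r of log2 CPM (counts scaled to a common library size) between 0.984 and 0.993 across genes, lowest in control. All 8 fibroblast markers were abundant. All 8 had a lower mean at 6 days than in control, COL3A1 by little. Under MetaICM the means lay above control for some and below it for others. COL1A1 had a mean of 8442 CPM in control, 1881 CPM at 6 days and 5869 CPM under MetaICM, COL3A1 3094, 2939 and 2471 CPM, and VIM 1831, 1270 and 2948 CPM. Markers of lung epithelium, leukocytes and red cells stayed at a mean of at most 7.05 CPM in any condition, with the hemoglobin genes HBA1, HBA2 and HBB at most 0.588 CPM. Endothelial PECAM1 and CDH5 were at or near 0, although TEK was read at 126 to 225 CPM. Levels in bulk RNA do not tell more cells from more RNA per cell.

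Against control, 6 of the 10 members were called higher in the 3-day ICM libraries and none was called lower. Calls needed a log2FC beyond 0.6 in either direction and an adjusted p below 0.05 (Benjamini-Hochberg over all genes, quasi-likelihood F-tests in edgeR). Over all 15692 genes tested, 8.85% were called higher and 13.2% lower at 3 days. After 6 days 7 members were called higher and none lower, where 13.3% of 15950 genes were higher and 17.2% lower. HMOX1, BLVRB, FTL, FTH1, SLC40A1 and FECH were called at both time points and SLC48A1 at 6 days. The median log2FC of the members was 0.81 at 3 days and 1.22 at 6 days, beside 0.0094 and −0.0013 over all genes tested. All 10 passed the filter on low counts in every comparison. The time points share the control libraries. With 2 libraries per condition, full separation of the libraries in a gene often arises without any change. Its share over all genes was not counted, so statements below that libraries lie above or below others are descriptions.

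**Figure D1:**
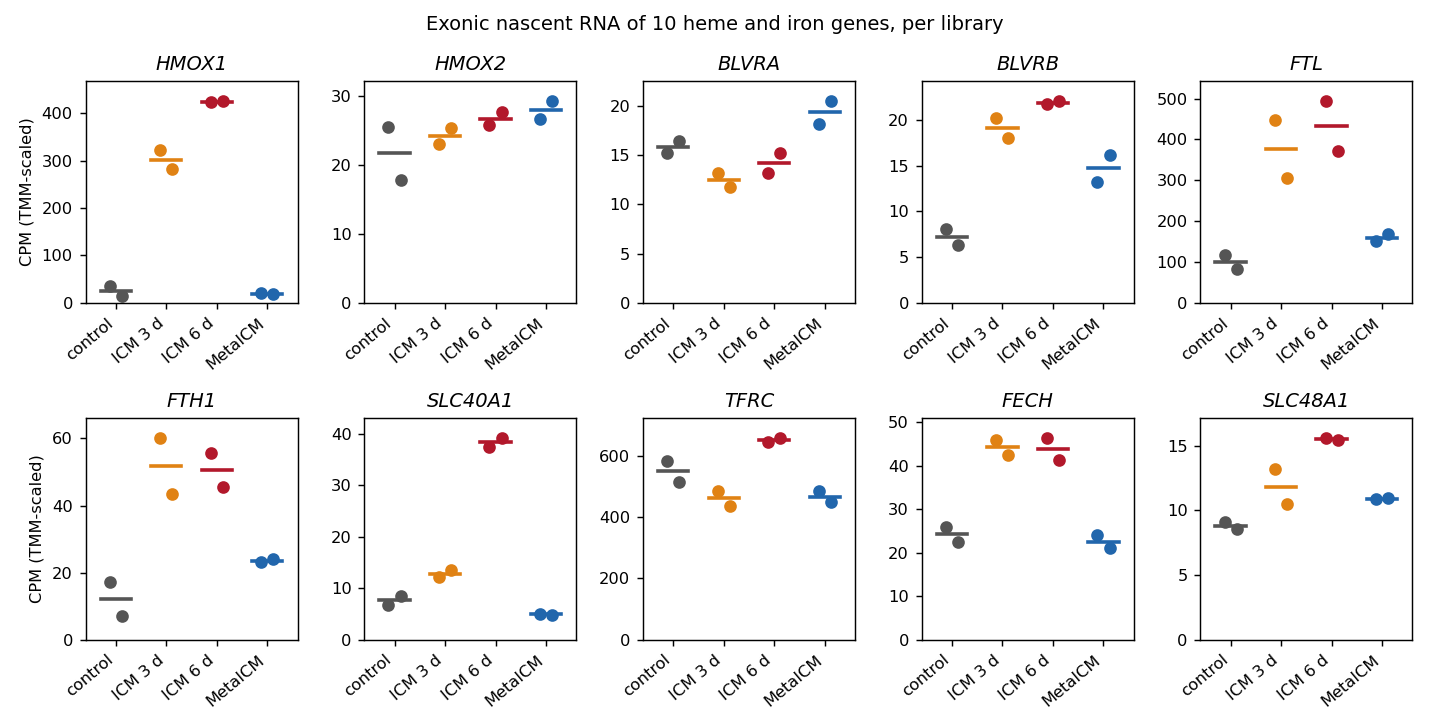
Exonic level of each of the 10 genes (panels; vertical axis, CPM after TMM scaling, from 0) in each library (points) of the 4 conditions (horizontal axis), with horizontal bars at the means of 2 libraries. HMOX1 lies between 283 and 426 CPM in the 4 ICM libraries and between 14.7 and 36.2 CPM in the other 4, and SLC40A1 is highest in the 6-day libraries (37.5 and 39.2 CPM).

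HMOX1, which encodes the inducible heme oxygenase, lies on chromosome 22 of hg19 (35777089 to 35790200, plus strand; 5 exon blocks). It received 36.2 and 14.7 CPM in the control libraries, 322 and 283 CPM at 3 days, 425 and 426 CPM at 6 days, and 19.8 and 18.1 CPM under MetaICM. Every ICM library was above every control and MetaICM library, and the MetaICM values fell between the 2 controls. HMOX1 rose 11.7-fold by 3 days (log2FC 3.55, standard error 0.30, 95% interval of the fold from 7.50 to 18.3, adjusted p = 2.67e-06, edgeR). By 6 days it had risen 16.4-fold (log2FC 4.04, standard error 0.31, 95% interval from 10.3 to 26.3, adjusted p = 3.66e-06). By log2FC it ranked 29th of the genes tested at 3 days and 31st at 6 days. The control libraries differed in HMOX1 by 1.30 on the log2 scale, more than 97.9% of genes did. Leaving out control replicate 1 gave a log2FC of 4.37 at 3 days and 4.85 at 6 days. These lie above the upper limits of the 95% intervals (4.19 and 4.72 on the log2 scale), which are thus too narrow for this gene. Leaving out control replicate 2 gave 3.04 and 3.55, within the intervals.

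HMOX2, the constitutive heme oxygenase on chromosome 16 (4524704 to 4560348), received 25.6 and 17.9 CPM in control, 23.1 and 25.5 CPM after 3 days, 25.8 and 27.7 CPM after 6 days and 26.8 and 29.3 CPM under MetaICM. The 3-day libraries lay within the range of the controls, and the 6-day and MetaICM libraries were above both controls by at most a few CPM. Its log2FC was 0.15 (95% interval from −0.25 to 0.54) at 3 days and 0.29 (from −0.10 to 0.67) at 6 days, with adjusted p-values of 0.582 and 0.206. The isozymes thus had unlike values in the same libraries, and no test of the difference between them was run.

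The biliverdin reductases also had unlike values. BLVRB, which encodes the reductase that also acts on flavins (chromosome 19, 40953675 to 40971652, minus strand), received 8.03 and 6.37 CPM in control, 20.2 and 18.1 CPM after 3 days, 21.7 and 22.0 CPM after 6 days and 13.3 and 16.2 CPM under MetaICM. The ICM and MetaICM libraries lay above both controls, and the MetaICM libraries between control and ICM. BLVRB rose 2.64-fold at 3 days (log2FC 1.40, standard error 0.19, adjusted p = 0.000177, edgeR) and 3.01-fold at 6 days (log2FC 1.59, standard error 0.17, adjusted p = 4.23e-05). BLVRA, the main reductase of adult bilirubin formation (chromosome 7, 43798272 to 43846941), received 15.2 and 16.4 CPM in control, 13.1 and 11.7 CPM after 3 days, 13.2 and 15.2 CPM after 6 days and 18.2 and 20.4 CPM under MetaICM. Its ICM libraries were below the controls, 6-day replicate 2 barely so (15.195 CPM against 15.22 CPM in control replicate 1), and its MetaICM libraries were above them. The log2FC of BLVRA was −0.34 (95% interval from −0.72 to 0.04, adjusted p = 0.165) at 3 days and −0.16 (from −0.50 to 0.19, adjusted p = 0.454) at 6 days.

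Both ferritin chains rose. FTL, the light chain, which helps iron to mineralize in the shell (chromosome 19, 49468566 to 49470136), received 117 and 82.3 CPM in control, 447 and 305 CPM after 3 days, 494 and 373 CPM after 6 days, and 150 and 169 CPM under MetaICM. All ICM and MetaICM libraries were above the controls, and the ICM libraries were the highest. Replicates differed in FTL by 0.55 at 3 days and 0.40 at 6 days on the log2 scale, more than 87.8% and 85.1% of genes did. FTL rose 3.76-fold at 3 days (log2FC 1.91, standard error 0.20, adjusted p = 1.98e-05, edgeR) and 4.32-fold at 6 days (log2FC 2.11, standard error 0.18, adjusted p = 9.27e-06). FTH1, the heavy chain, which oxidizes iron as it enters (chromosome 11, 61731757 to 61735106, minus strand), received 17.1 and 7.04 CPM in control, 60.2 and 43.5 CPM after 3 days, 55.7 and 45.5 CPM after 6 days and 23.0 and 24.0 CPM under MetaICM. Here too no ICM or MetaICM library overlapped the controls. FTH1 rose 4.21-fold at 3 days (log2FC 2.07, standard error 0.30, adjusted p = 0.000249) and 4.08-fold at 6 days (log2FC 2.03, standard error 0.29, adjusted p = 0.000332).

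Some values of FTH1 have limits that FTL does not share, while the limit from copies, given last, holds for both. Of its 1203 exon bases, 880 overlap exons of BEST1 on the opposite strand, and since strand was not used and pairs on several genes were not counted, its counts come largely from the other 323 bases. BEST1 itself had 304 and 186 counts in control and 770 and 603 after 6 days, and reads of FTH1 and BEST1 cannot be told apart without strand. The control libraries differed in FTH1 by 1.27 on the log2 scale, more than 97.7% of genes did. Leaving out control replicate 1 gave a log2FC of 2.89 at 3 days and 2.83 at 6 days. These lie above the upper limits of the 95% intervals from the fit (2.72 and 2.67). Leaving out control replicate 2 gave 1.58 and 1.56, within the intervals. Ferritin genes, FTL included, have near-identical copies, and reads that map to several places were not counted. Of the annotated copies FTH1P3 had 7 to 23 counts per library and FTHL17, FTHL18 and FTLP10 at most 1.

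SLC40A1, which encodes ferroportin (chromosome 2, 190425316 to 190445537, minus strand), received 6.72 and 8.44 CPM in control, 12.2 and 13.4 CPM after 3 days, 37.5 and 39.2 CPM after 6 days and 4.95 and 4.78 CPM under MetaICM. The 4 conditions did not overlap, with 6 days the highest and MetaICM the lowest. It was 1.69-fold higher at 3 days (log2FC 0.76, standard error 0.20, adjusted p = 0.015, edgeR), a call lost without control replicate 1 (log2FC 0.60, just under the cutoff), without 3-day replicate 1 (adjusted p = 0.0549) and without 3-day replicate 2 (adjusted p = 0.0785). At 6 days it rose 5.08-fold (log2FC 2.34, standard error 0.16, adjusted p = 1.82e-06).

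TFRC, which encodes the receptor for iron-loaded transferrin (chromosome 3, 195776155 to 195808961, minus strand), was not called in any of the 5 comparisons. It received 585 and 515 CPM in control, 486 and 437 CPM after 3 days, 647 and 660 CPM after 6 days and 484 and 450 CPM under MetaICM. The 6-day libraries were above the controls and the 3-day and MetaICM libraries below them. The log2FC was −0.26 (95% interval from −0.54 to 0.03, adjusted p = 0.162, edgeR) at 3 days and 0.24 (from −0.01 to 0.50, adjusted p = 0.107) at 6 days. With counts between 6224 and 12416 per library, TFRC had the most reads of the members in each of the 8 libraries.

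FECH, which completes heme in mitochondria (chromosome 18, 55211609 to 55253934, minus strand), received 25.9 and 22.5 CPM in control, 46.0 and 42.4 CPM after 3 days, 46.4 and 41.2 CPM after 6 days and 24.0 and 21.1 CPM under MetaICM. The 4 ICM libraries stood together above the other 4. FECH rose 1.82-fold at 3 days (log2FC 0.86, standard error 0.15, adjusted p = 0.000943, edgeR) and 1.80-fold at 6 days (log2FC 0.85, standard error 0.14, adjusted p = 0.000698). SLC48A1, which moves heme out of lysosomes into the cytosol (chromosome 12, 48167021 to 48176534), received 9.10 and 8.53 CPM in control, 13.2 and 10.5 CPM after 3 days, 15.6 and 15.5 CPM after 6 days and 10.9 and 10.9 CPM under MetaICM. All ICM and MetaICM libraries were above the controls. SLC48A1 rose 1.76-fold at 6 days (log2FC 0.81, standard error 0.16, adjusted p = 0.00239), and its 3-day log2FC of 0.43 (95% interval from −0.01 to 0.87, adjusted p = 0.133) did not pass. Of its 2978 exon bases 28 overlap HDAC7, and of the 2817 of HMOX2 90 overlap NMRAL1, both on the opposite strand.

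**Figure D2:**
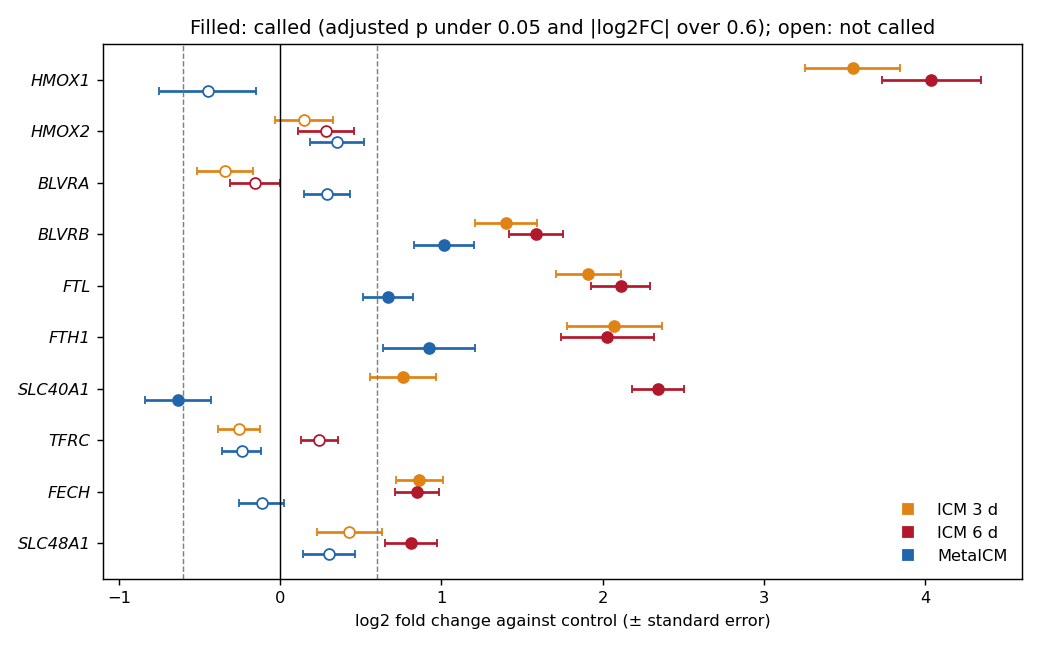
Log2 fold change (horizontal axis) of each gene (vertical axis) against the 2 control libraries after 3 days of ICM (orange), 6 days of ICM (red) and under MetaICM (blue), with standard errors as bars, filled points for called genes and dashed lines at the cutoff of 0.6. HMOX1 is farthest to the right with 3.55 and 4.04 under ICM and −0.45 under MetaICM.

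The direct comparison of 6 with 3 days asked which members went on changing. SLC40A1 was the 1 member called (3.53% of 15845 genes were higher and 4.54% lower), 2.99-fold higher at 6 than at 3 days (log2FC 1.58, standard error 0.12, 95% interval of the fold from 2.51 to 3.56, adjusted p = 2.62e-08, edgeR). HMOX1 (log2FC 0.49, adjusted p = 0.000727) and TFRC (log2FC 0.50, adjusted p = 0.000505) passed the test but not the cutoff of 0.6, each with all 6-day libraries above the 3-day ones. With all 8 libraries in 1 edgeR fit, HMOX1 did not pass (log2FC 0.49, adjusted p = 0.153). FTL, FTH1 and FECH overlapped between the time points, with log2FC of 0.20 (95% interval from −0.10 to 0.49), −0.05 (from −0.33 to 0.23) and −0.02 (from −0.24 to 0.20). For BLVRB the difference was 0.18 (from −0.07 to 0.44) and for SLC48A1 0.37 (from 0.07 to 0.68, adjusted p = 0.0832).

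MetaICM libraries were compared with control and with 6 days of ICM, although their dose and time are not given and may differ from those of ICM. Against control, BLVRB, FTL and FTH1 were called higher and SLC40A1 lower, where 7.41% of 15904 genes were higher and 8.99% lower. BLVRB rose 2.02-fold (log2FC 1.02, standard error 0.18, adjusted p = 0.00397, edgeR), FTL 1.59-fold (log2FC 0.67, standard error 0.15, adjusted p = 0.0111) and FTH1 1.90-fold (log2FC 0.92, standard error 0.29, adjusted p = 0.0364). SLC40A1 fell by 0.63 on the log2 scale (standard error 0.20, adjusted p = 0.0423). BLVRB was the member called under every alternative and with each library left out, and the other 3 calls depended on them. With DESeq2 the adjusted p was 0.250 for FTH1 and 0.141 for SLC40A1, and without control replicate 2 the log2FC was 0.46 for FTH1, 0.45 for FTL and −0.47 for SLC40A1. HMOX1, at 19.8 and 18.1 CPM, had a log2FC of −0.45 (95% interval from −1.12 to 0.22, adjusted p = 0.291), which became 0.37 without control replicate 1 and −0.94, a call, without control replicate 2. HMOX2 (0.35), BLVRA (0.29), SLC48A1 (0.30), TFRC (−0.24) and FECH (−0.11) had log2FC with intervals that include 0, although HMOX2 was called without control replicate 1 (log2FC 0.65).

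Against 6 days of ICM, 5 members were lower under MetaICM and none higher (12.0% of 16036 genes were lower and 15.7% higher). HMOX1 was 22.5-fold lower (log2FC −4.49, standard error 0.09, adjusted p = 1.16e-19, edgeR) and SLC40A1 7.88-fold lower (log2FC −2.98, standard error 0.11, adjusted p = 5.62e-15). FTL (log2FC −1.44), FTH1 (−1.10) and FECH (−0.96) also fell, with adjusted p-values of 1.03e-10, 4.15e-09 and 2.33e-08. BLVRB (−0.57), SLC48A1 (−0.51), TFRC (−0.48) and BLVRA (0.45) passed the test without reaching the cutoff, and BLVRB was called without MetaICM replicate 2 (−0.72). HMOX2 differed by 0.07 (95% interval from −0.12 to 0.26).

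Levels can be set between genes only per length, here as CPM per kb of exon not shared with another gene, which holds to the extent that coverage is even. The values of FTH1 may be too low, since pairs that reach its bases shared with BEST1, or map to several places, may be lost. Those of FTL may be too low for the second of these reasons. The SDs do not cover such losses, so the place of FTH1 in the orders below and the distances of FTL from its neighbours are uncertain. In control FTL (115 ± 28.4 CPM per kb, SD, n = 2) and TFRC (105 ± 9.40) were the highest, FTH1 (37.4 ± 22.1), HMOX1 (16.4 ± 9.81) and BLVRA (13.5 ± 0.705) followed, then BLVRB (9.01 ± 1.46) and HMOX2 (7.98 ± 2.01), FECH (3.10 ± 0.308) and SLC48A1 (2.99 ± 0.137), and SLC40A1 (2.26 ± 0.364) was the lowest. By a rule that 2 neighbours differ where their means are farther apart than the sum of their SDs, FTL did not differ from TFRC, FTH1 from HMOX1, HMOX1 from BLVRA, BLVRB from HMOX2 or FECH from SLC48A1. After 6 days the order began with FTL (498 ± 98.1), HMOX1 (274 ± 0.611), FTH1 (157 ± 22.3) and TFRC (125 ± 1.69), each farther from the next than their SDs. HMOX1, below TFRC in control, was thus above it, and SLC40A1 (11.4 ± 0.354) had moved from the last place to one beside BLVRA (12.1 ± 1.20), from which it did not differ. Under MetaICM HMOX1 (12.2 ± 0.730) lay below BLVRA (16.4 ± 1.37), and SLC40A1 (1.45 ± 0.0368) was again the lowest.

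**Figure D3:**
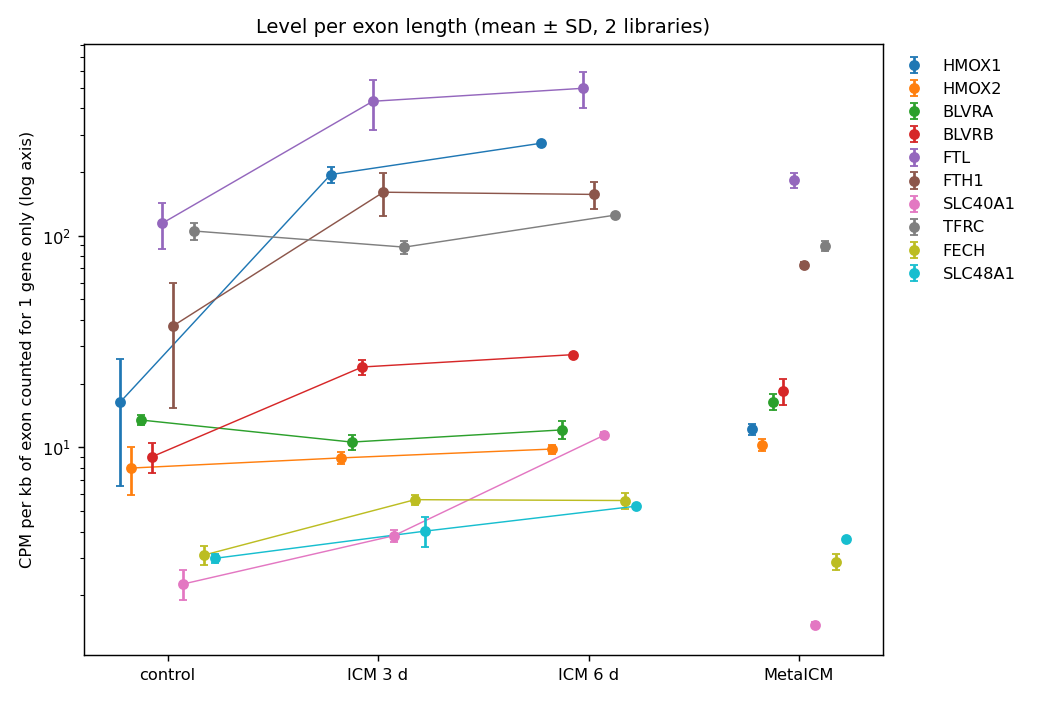
Level of each gene per kb of exon not shared with another gene (log axis, CPM per kb) in the 4 conditions (horizontal axis), as the mean and SD of 2 libraries, with lines between the control and ICM means. HMOX1 goes from 16.4 CPM per kb in control to 274 after 6 days, above FTH1 (157) and TFRC (125), and SLC40A1 from 2.26 to 11.4. The FTH1 values may be too low, since pairs that reach bases shared with BEST1 may be lost. Values of FTH1 and FTL may also be too low where pairs map to several places.

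The wider pathway was described with 83 genes in 9 lists, 73 of them other than the members. At 3 days, 12 of the 65 tested were called higher and 5 lower, at 6 days 20 of 65 and 6, and under MetaICM 7 of 66 and 5, each against control and to be read beside the shares of all genes above. Their median log2FC was 0.24, 0.34 and 0.10, respectively.

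In heme synthesis 3 of 8 tested genes were called higher at each time point, ALAS1 and FECH at both, and none was called lower. ALAS1, the rate-limiting enzyme, received 69.7 and 53.0 CPM in control, 195 and 191 CPM after 3 days, 208 and 221 CPM after 6 days and 65.9 and 68.2 CPM under MetaICM. Its log2FC was 1.65 at 3 days (adjusted p = 4.66e-06, edgeR) and 1.80 at 6 days (adjusted p = 4.18e-06), so the first and last enzymes of the pathway (ALAS1 and FECH) both rose with HMOX1. UROD was called at 3 days (log2FC 0.62) and ALAD, which joins the first intermediates, at 6 days (0.81). No gene of this list was called under MetaICM against control.

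Of 14 genes for heme transport and binding, 3 were higher and 1 lower at 3 days, and 6 higher and 1 lower at 6 days. ABCG2, an exporter that carries porphyrins and heme among many substrates, received 5.83 and 5.80 CPM in control, 11.9 and 11.1 CPM after 3 days, 30.4 and 30.7 CPM after 6 days, and 6.48 and 7.73 CPM under MetaICM. Like SLC40A1 it was higher again at 6 than at 3 days (log2FC 1.40, adjusted p = 1.73e-07, edgeR). ABCB6, a porphyrin transporter, rose by 1.51 and 1.54, and PGRMC1, a heme-binding membrane protein, by 1.17 and 1.38 at 3 and 6 days on the log2 scale, while its relative PGRMC2 fell by 0.65 at 6 days and by 0.64 under MetaICM. POR, which supplies electrons to heme oxygenase, had log2FC of 0.51 and 0.58, short of the cutoff.

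Among 9 tested genes of iron uptake, 1 (SLC39A14, a zinc and iron importer, log2FC −0.83) was lower and none higher at 3 days, and 2 were higher and 1 lower at 6 days. TF, which encodes transferrin, rose by 2.50 at 6 days from very few reads (6 and 8 counts in control, 53 and 52 after 6 days), SLC22A17 rose by 0.91 and STEAP3, a ferrireductase, fell by 0.71. STEAP3 was higher under MetaICM (log2FC 0.74) and STEAP2 lower (−1.21). In iron storage NCOA4, the receptor that delivers ferritin to lysosomes, rose by 0.67 at 6 days, and PCBP2, an RNA-binding protein that also carries iron to ferritin, fell by 0.75, 0.93 and 0.99 at 3 days, 6 days and under MetaICM, with control libraries at 140 and 250 CPM.

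In iron export and its control, 2 of 7 genes were higher and 1 lower at 3 days, 3 higher and 1 lower at 6 days, and 1 of 8 higher and 3 lower under MetaICM, SLC40A1 included. HFE, whose mutation causes iron overload, rose by 0.94 at 3 days, 1.50 at 6 days and 0.72 under MetaICM. NEO1, a receptor that works with hemojuvelin, fell by 0.72 at 3 days. BMP6, a signal that raises hepcidin in liver, rose by 1.11 at 6 days. HEPH, a ferroxidase that works with ferroportin, went the other way from SLC40A1 under ICM, with 39.7 and 44.2 CPM in control, 28.0 and 27.6 CPM after 3 days, 23.0 and 20.7 CPM after 6 days and 12.8 and 13.0 CPM under MetaICM. It fell by 0.94 at 6 days (adjusted p = 0.000334, edgeR) and by 1.70 under MetaICM (adjusted p = 5.16e-05), where CP, the soluble ferroxidase, also fell (log2FC −1.35, adjusted p = 0.0279, at no more than 1.74 CPM).

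No gene of the 3 for iron sensing (ACO1, IREB2, FBXL5) was called against control in any condition. Of 18 genes for mitochondrial iron and iron-sulfur clusters, 3 were higher and 1 lower at 3 days, 5 and 2 at 6 days, and 5 and 0 under MetaICM. FDXR, which passes electrons to ferredoxin, rose by 1.72, 1.47 and 1.31 in the 3 conditions and ISCU, the cluster scaffold, by 0.74, 0.75 and 0.80. SLC25A28, a mitochondrial iron importer, rose by 0.82, 0.89 and 0.72. GLRX5, which hands clusters on, was called under MetaICM (log2FC 1.20).

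Of 6 regulators of HMOX1, 3 were higher and none lower at each ICM time point, and none was called under MetaICM against control. KEAP1 received 41.0 and 31.1 CPM in control, 86.5 and 70.9 CPM after 3 days, 73.0 and 70.4 CPM after 6 days and 41.1 and 46.3 CPM under MetaICM, a log2FC of 1.12 (adjusted p = 0.000315, edgeR) and 0.98 (adjusted p = 0.000373) under ICM. MAFG, a small MAF partner of NRF2 and BACH1, rose by 0.95 and 1.26, and MAFF by 0.65 and 0.82. NFE2L2 itself had log2FC of 0.09 and 0.15 under ICM and BACH1 of 0.08 and 0.01 (adjusted p from 0.387 to 0.932), with BACH1 at −0.48 under MetaICM (adjusted p = 0.00885, short of the cutoff). RNA levels of these factors do not measure their activity.

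**Figure D4:**
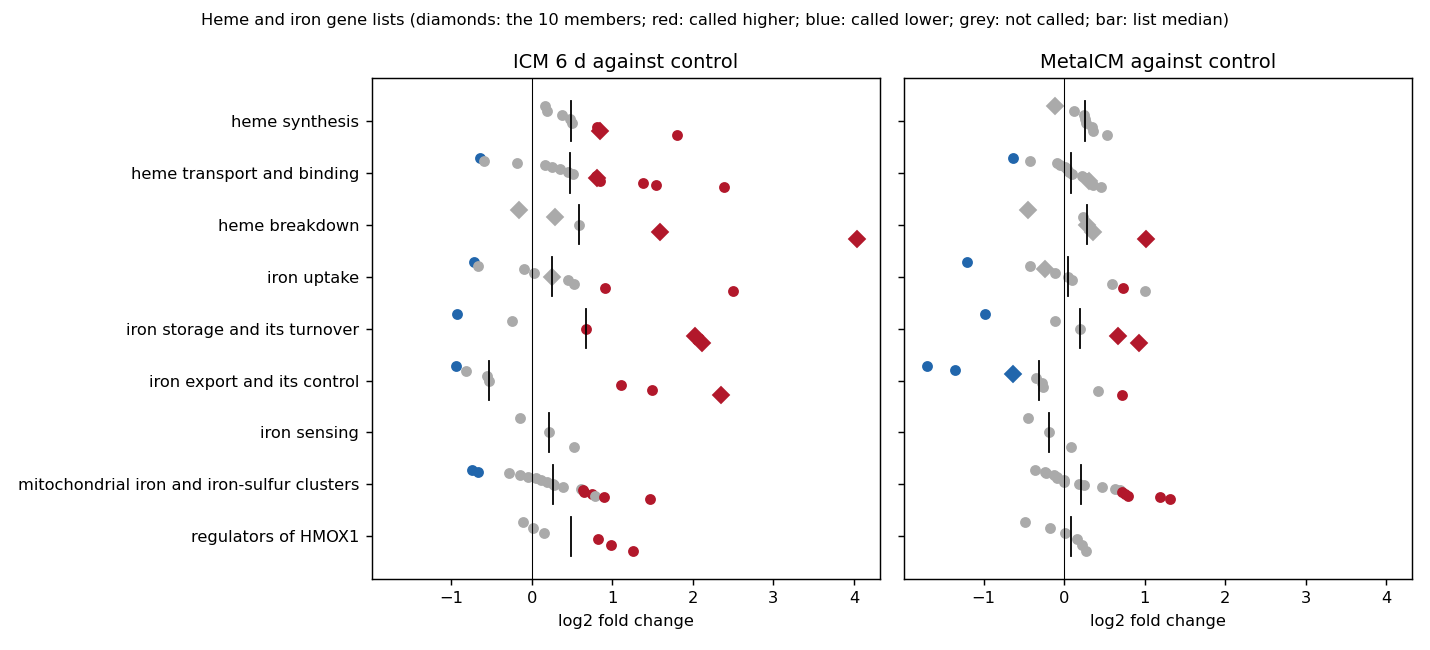
Log2 fold change (horizontal axis) of each tested gene of the 9 heme and iron lists (vertical axis) after 6 days of ICM (left) and under MetaICM (right), both against control; diamonds are the 10 members, red and blue mark genes called higher and lower, grey those not called, and black bars list medians. HMOX1 stands alone on the right in the ICM panel at 4.04, and ALAS1 leads heme synthesis at 1.80.

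HMOX1 and SLC40A1 had the widest ranges of condition means among the members (4.48 and 2.95 on the log2 scale), and HMOX2 the narrowest (0.39). Over the 8 libraries, the genes whose log2 CPM followed HMOX1 most closely among 16590 compared were HKDC1 (Pearson r = 0.996), COA6 (0.995) and, each at 0.994, CABYR, TXNRD1 and NMRAL2P. TXNRD1, which encodes thioredoxin reductase, received 1397 and 1246 CPM in control and 3708 and 3650 CPM after 6 days, and HKDC1, a hexokinase-like gene, 1.01 and 0.414 CPM and 18.1 and 19.6 CPM. Closest to SLC40A1 were SLFN5 (r = 0.992), ANO10, SECISBP2L, TUBGCP5 and ZDBF2, genes with smaller ranges, such as SLFN5 with 238 and 259 CPM in control, 290 and 314 CPM after 3 days, 402 and 408 CPM after 6 days and 207 and 204 CPM under MetaICM. Among the members HMOX1 was most like FECH (r = 0.985) and least like BLVRA (r = −0.80). The points of each correlation are the same 8 libraries in 4 conditions, so these values describe a shared pattern over conditions and carry no test.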

How the data were processed

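Factory RNA-Seq counts were analysed for 8 IMR90 libraries, grouped by their labels. Per the file headers, the authors counted read pairs on RefSeq exons with featureCounts 1.6.3, and per the submitters' processing notes from STAR 2.6.0c alignments to GRCh37 (hg19); the deposited values are raw counts, without strand, and pairs on several genes or places were not counted. The study's own nascent values came from intronic reads, which were not used here. Each comparison of 2 conditions (4 libraries) was fitted over all genes with edgeR 4.0.16 (R 4.3.3), TMM factors, filterByExpr (minimum count 10) and quasi-likelihood F-tests, adjusted by Benjamini-Hochberg; calls needed a log2FC beyond 0.6 in either direction and an adjusted p below 0.05. CPM values are TMM-scaled. Intervals are 95% intervals from the fit, which shares spread over genes. Fits were tested on simulated data with the same spread for every gene. That test does not cover genes whose replicates differ widely, such as HMOX1 and FTH1 in control. Members and gene lists were chosen with earlier results of these data known. From the lists, the text names at most 3 called genes per list and comparison with control (a gene named for 1 comparison may be given in the others too), besides NFE2L2, KEAP1 and BACH1, which are always named, genes not called in a list that needed an example (POR and the iron sensors, added after their values were seen), and the 5 genes most like the 2 members of widest range. Alternatives were DESeq2 1.42.0, its size factors, library totals, other filters, an adjusted p under 0.01, all 8 libraries in 1 fit, a replicate block and each library left out; a condition left with 1 library is then assumed to vary like the other. Sequences came from GRCh37 with GENCODE 44 and from RefSeq promoters (GRCh38.p14). Python 3.11.15, pandas 2.3.3 and matplotlib 3.10.9 were used.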

Additional observations from a re-analysis of the deposited data

Results flagged for a closer look

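SLC40A1 was the member called between the ICM time points: its log2FC of 6 against 3 days was 1.58, from 12.2 and 13.4 CPM to 37.5 and 39.2 CPM, and all alternatives and left-out libraries kept that call. HMOX1 (0.49) and TFRC (0.50) also passed the direct test, below the cutoff of 0.6. HMOX1 did not pass with all 8 libraries in 1 edgeR fit (adjusted p = 0.153). Outlying libraries were not tested for.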

How the results depend on the processing

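The counts of members called kept within 1.5 times of the reported count in 4 of the 5 comparisons under every alternative, with each library left out giving 5 to 6 at 3 days, 7 at 6 days, 1 for 6 against 3 days and 5 to 6 for MetaICM against 6 days. For MetaICM against control, the 4 calls became 1 with an adjusted p under 0.01 (BLVRB), 2 with DESeq2 (BLVRB and FTL) and 1 to 5 with each library left out; the lowest came without MetaICM replicate 2, and without control replicate 2 there were 2. The cause was not tested.

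With each library left out in turn, differences that were not called could change sign. For 6 against 3 days the log2FC ranged from −0.26 to 0.22 for FTH1 (0.22 without 3-day replicate 1, 0.092 without 6-day replicate 2), from −0.093 to 0.062 for FECH (0.049 and 0.062 without the same libraries) and from −0.058 to 0.51 for FTL (−0.058 without 3-day replicate 2, −0.0048 without 6-day replicate 1). HMOX2 at 3 days ranged from −0.10 (without control replicate 2) to 0.44, and HMOX1 under MetaICM against control from −0.94 to 0.37 (without control replicates 2 and 1). Settings other than a left-out library reversed none of the members' directions, and 7 member values lost a call under them: SLC40A1 at 3 days with an adjusted p under 0.01, and SLC40A1, FTH1 and FTL under MetaICM.

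A replicate block left the members called at 6, 7, 1, 4 and 5, and moved the count over all genes from 3456 to 3915 at 3 days and from 4859 to 5116 at 6 days. Same-numbered libraries deviated together with correlations from −0.024 to 0.17 over the 5 comparisons, so the numbers were not taken as pairs. The lowest count of a member in a library was 77 (BLVRB, control replicate 2).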
